A study of Rattus norvegicus with 8 samples.

Results

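Notch signalling was examined through 10 genes: the receptor genes Notch1, Notch2, Notch3 and Notch4, the ligand genes Jag1 and Dll4, and the target genes Hes1, Hey1, Hey2 and Heyl. They were taken as a named set, and on the arrays 12 of 45598 probes carried an accession of one of them, out of 16678 genes that could be named. RNA from vessels of male rats had been hybridised to 1-colour (Cy3) Agilent arrays, with 1 array for each of 4 control rats, labelled as the Wistar-Kyoto strain, and 4 rats labelled as having hypertensive disease. The strain entry of the hypertensive rats also reads Wistar-Kyoto, while the series title describes them as a disease model, and their strain, the way hypertension arose, the age of either group and the vessel taken are not given in the sources used here. No transgene, drug or other agent is named in the labels for either group. Replicate numbers come from the titles, and nothing in the labels says that they pair rats across groups.

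Notch receptors are membrane proteins that bind Delta-like (Dll) or Jagged (Jag) ligands on a neighbouring cell. Binding lets ADAM proteases and then the gamma-secretase complex cut the receptor, and the freed intracellular part enters the nucleus, joins the DNA-binding protein RBPJ and its Mastermind coactivators, and switches on the repressor genes of the HES and HEY families. In blood vessels Notch3 is known as the main receptor of smooth muscle, Notch1 and Notch4 are known from endothelium, Dll4 is the arterial endothelial ligand, and Jag1 is made by both cell types. The pathway is known for setting arterial identity and for maturation of the smooth muscle coat.

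The 250 bases before the RefSeq start (build GRCr8, written 5′ to 3′ on the gene's own strand) are shown for the 3 targets held in the promoter table, because RBPJ acts through DNA near the genes it regulates. Capitals mark each match to the RBPJ motif TGGGAA, or to TTCCCA, which is the same motif on the other strand. Hes1 lies at chr11:84213046-84213295 on the minus strand, Hey2 at chr1:28640850-28641099 on the plus strand and Heyl at chr5:140793021-140793270 on the plus strand.
Hes1: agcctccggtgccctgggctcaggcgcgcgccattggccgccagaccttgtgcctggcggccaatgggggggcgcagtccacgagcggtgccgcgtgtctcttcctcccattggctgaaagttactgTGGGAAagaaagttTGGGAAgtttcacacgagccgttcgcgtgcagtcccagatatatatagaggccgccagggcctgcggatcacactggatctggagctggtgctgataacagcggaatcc
Hey2: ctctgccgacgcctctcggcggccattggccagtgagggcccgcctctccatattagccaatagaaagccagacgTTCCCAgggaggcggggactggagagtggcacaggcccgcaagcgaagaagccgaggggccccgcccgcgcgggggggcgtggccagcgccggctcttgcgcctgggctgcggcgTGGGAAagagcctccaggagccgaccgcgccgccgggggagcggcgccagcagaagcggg
Heyl: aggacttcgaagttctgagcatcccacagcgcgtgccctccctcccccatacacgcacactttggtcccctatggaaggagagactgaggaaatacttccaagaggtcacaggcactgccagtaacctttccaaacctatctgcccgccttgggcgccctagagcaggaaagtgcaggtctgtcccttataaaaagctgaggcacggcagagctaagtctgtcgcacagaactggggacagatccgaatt

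The Hes1 window held 2 matches on the same strand, 123 to 118 and 109 to 104 bases before the start. The Hey2 window also held 2, on opposite strands, at 175 to 170 and 60 to 55 bases before the start, and the Heyl window held none. Of 33469 promoter windows of this length in the same table, 22.1% held at least 1 match on either strand. The N-box CACNAG, which HES proteins bind, was searched on both strands (it reads CTNGTG on the opposite one) and was found 4 times before Hes1 and in neither of the other 2 windows, against 37.2% of all windows. The E-box CACGTG, which reads the same on both strands, was in none of the 3, against 5.59% of all windows. A match is only a stretch of letters, and its absence says nothing about binding.

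All levels are log2 processed signal after subtraction of the array's 75th percentile, so 0 is the brightness of a probe at that percentile, and levels of different probes cannot be compared. The 75th percentile was 405 to 503 in control arrays and 357 to 478 in hypertensive arrays, and no gene spot was saturated. Each gene was read by its brightest probe among those kept as above background, and a call means an adjusted p under 0.05 over all 24552 tests of the limma fit (Benjamini-Hochberg). All 10 genes were tested, each well above background on all 8 arrays, so no member was lost to the detection filter. All 8 arrays came from 1 slide and 1 scan. Controls lay in its row 1 and hypertensive rats in its row 2, so position on the slide and group cannot be told apart. In both groups the replicate number was also the slide column. Of 10 endothelial and 10 smooth muscle markers, all were above background in both groups. Marker levels were summed on a linear scale where the 75th percentile is 1, so each sum follows its brightest probes. The endothelial sum was 149 to 169 in controls and 162 to 192 in hypertensive rats. That of smooth muscle was 488 to 668 and 507 to 731. Of the endothelial markers, 6 had log2 changes (hypertensive minus control) above 0 and 4 below. Vwf, the brightest, was at 0.46 ± 0.17 and at 0.10 on its second probe. Cldn5 was at -0.43 ± 0.11 with no overlap between groups, and neither gene was called. Cldn5 passed the threshold as lower with quantile normalization (limma adjusted p = 0.0486) and with normexp background correction (0.0216). Vwf passed it as higher without hypertensive replicate 3 (0.64, limma adjusted p = 0.0208).

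None of the 10 Notch receptor, ligand and target genes differed between the groups by this test. Of the 10, none was called higher and none lower, where 4.53% of all tests were called (2.61% higher and 1.91% lower). None reached an unadjusted p under 0.05 either, where 20.3% of all tests did, and for none were the groups free of overlap, where 13.6% of all tests had groups that did not overlap. The point estimates were above 0 for 6 genes and below 0 for 4, with a median log2 change (hypertensive minus control) of 0.03 against 0.04 over all tests. They ran from -0.30 for Hes1 to 0.25 for Hey2. In bulk vessel RNA, fewer cells of a type and less RNA per cell cannot be told apart, in either direction.

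**Figure D1:**
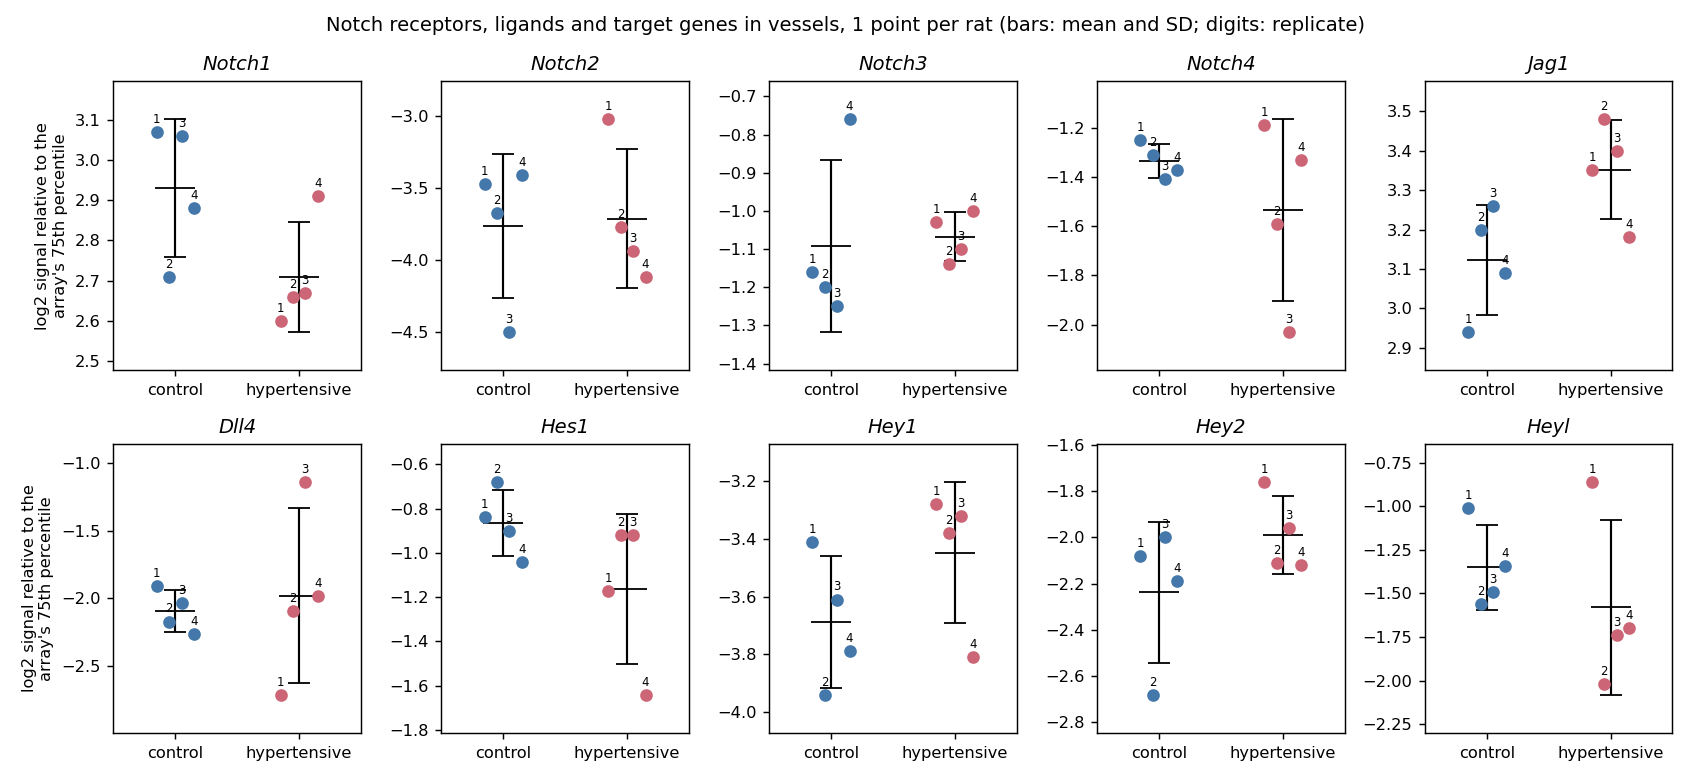
Level of each of the 10 genes in every array (y axis, log2 signal relative to the array's 75th percentile; x axis, group), with 1 point per rat, the replicate number above it, and the group mean ± SD as bars. In all 10 panels the control and hypertensive points overlap.

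Among the receptors, Notch1, which acts in endothelium and in many other cell types, read 3.07, 2.71, 3.06 and 2.88 in the 4 controls and 2.60, 2.66, 2.67 and 2.91 in the 4 hypertensive rats, in the order of their replicate numbers, as for every gene below. Of the 4 hypertensive rats 3 lay below all controls, while hypertensive replicate 4 lay within the control range. The log2 change of Notch1 was -0.22 ± 0.11 (SE, n = 4 and 4; limma adjusted p = 0.310), with a 95% confidence interval from -0.47 to 0.03. Notch4, an endothelial receptor, read -1.25, -1.31, -1.41 and -1.37 in controls and -1.19, -1.59, -2.03 and -1.33 in hypertensive rats. Controls lay close together (SD 0.072) and hypertensive rats did not (SD 0.37), with replicate 3 the lowest and replicate 1 the highest of all 8. Its change was -0.20 ± 0.17 (limma adjusted p = 0.556), or -0.031 without replicate 3 and -0.31 without replicate 1. Its second probe was not well above background on any of the 8 arrays and was not tested.

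Notch3, the smooth muscle receptor, read -1.16, -1.20, -1.25 and -0.76 in controls and -1.03, -1.14, -1.10 and -1.0 in hypertensive rats. Control replicate 4 stood above the other 7 arrays, which spanned a narrow range. The change of Notch3 was 0.02 ± 0.12 (limma adjusted p = 0.941), with a sign that turned under quantile normalization and median centring, and its 95% interval from -0.25 to 0.29 corresponds to a fold between 0.843 and 1.22. Notch2, the receptor that works beside Notch3 in smooth muscle, read -3.47, -3.67, -4.50 and -3.41 in controls and -3.02, -3.77, -3.94 and -4.12 in hypertensive rats. The change of Notch2 was 0.05 ± 0.30 (limma adjusted p = 0.945), also of turning sign under those scalings. Both groups of Notch2 values were wide, with SDs of 0.50 and 0.49, and the 95% interval ran from -0.62 to 0.72.

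The ligand Jag1 had the smallest p of the 10 genes. It read 2.94, 3.20, 3.26 and 3.09 in controls and 3.35, 3.48, 3.40 and 3.18 in hypertensive rats. Hypertensive replicates 1, 2 and 3 lay above all controls, and replicate 4 lay below control replicates 2 and 3. The change of Jag1 was 0.23 ± 0.10 (1.17-fold; unadjusted p = 0.0521 and adjusted p = 0.251 in the limma fit), with a 95% interval from -0.0026 to 0.46. Dll4, the arterial endothelial ligand, read -1.91, -2.17, -2.03 and -2.26 in controls and -2.71, -2.09, -1.14 and -1.98 in hypertensive rats. The 4 controls sat within the hypertensive range, whose lowest and highest rats were replicates 1 and 3. The change of Dll4 was 0.11 ± 0.28 (limma adjusted p = 0.850), and it was -0.165 without hypertensive replicate 3.

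Dll4 was the only member with a second kept probe, designed to a predicted transcript. That probe read -3.78, -5.35, -4.90 and -5.34 in controls and -4.60, -5.01, -4.72 and -4.68 in hypertensive rats, well above background on 2 control and 3 hypertensive arrays. It did not repeat the low value of hypertensive replicate 1 or the high value of replicate 3. Its change was 0.09 ± 0.32 (limma adjusted p = 0.901 over all kept probes).

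The 4 target genes had estimates on both sides of 0. Hes1, a repressor induced by Notch and by several other signals, read -0.84, -0.68, -0.90 and -1.04 in controls and -1.17, -0.92, -0.92 and -1.64 in hypertensive rats. The lowest rat was hypertensive replicate 4, and the change of Hes1 was -0.30 ± 0.17 (limma adjusted p = 0.362), or -0.14 without that rat. Heyl, a HEY relative found in smooth muscle, read -1.01, -1.56, -1.49 and -1.34 in controls and -0.86, -2.02, -1.74 and -1.70 in hypertensive rats. Hypertensive replicates 2, 3 and 4 lay below all controls and replicate 1 above them all, so that the change was -0.23 ± 0.24 (limma adjusted p = 0.628), -0.47 without replicate 1 and -0.083 without replicate 2.

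Hey1, a repressor of arterial endothelium and smooth muscle, read -3.41, -3.94, -3.61 and -3.79 in controls and -3.28, -3.38, -3.32 and -3.81 in hypertensive rats. Hypertensive replicates 1, 2 and 3 lay above all controls and replicate 4 below 3 of them, with a change of 0.24 ± 0.15 (limma adjusted p = 0.429), or 0.36 without replicate 4. Hey2, which is best known from arterial and cardiac development, read -2.08, -2.68, -2.0 and -2.19 in controls and -1.76, -2.11, -1.96 and -2.12 in hypertensive rats. Control replicate 2 was the lowest of the 8, and the change of Hey2 was 0.25 ± 0.16 (limma adjusted p = 0.419), or 0.10 without that rat. The windows of Hes1 and Hey2 each held 2 RBPJ motifs. Neither gene was called, so the signs of their estimates are no result about the motif. A link between motif and change was not tested.

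**Figure D2:**
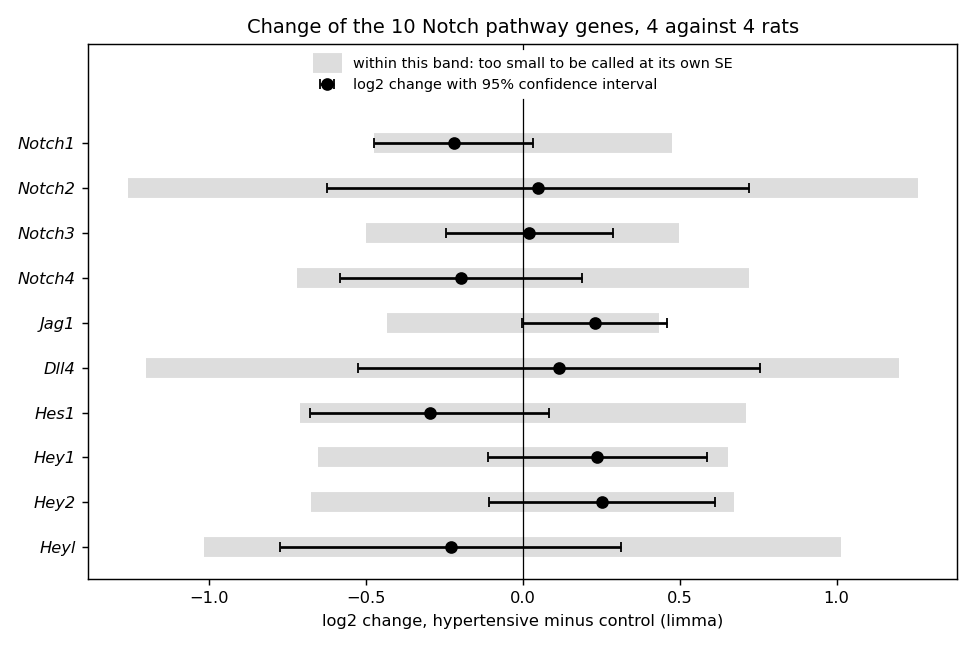
Log2 change of each gene (x axis, hypertensive minus control, limma, n = 4 and 4) with its 95% confidence interval. The grey band shows the size below which an estimated change could not have been called at that gene's own standard error. All 10 intervals include 0, and the bands reach from 0.43 (Jag1) to 1.26 (Notch2); the signs of Notch2 and Notch3 turned under quantile normalization and median centring.

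The spread between rats set what could have been called. At its own standard error, Jag1 would have been called from an estimated change of 1.35-fold, Notch1 from 1.39-fold and Notch3 from 1.41-fold. Hey1, Hey2, Hes1 and Notch4 would have needed 1.57-fold, 1.60-fold, 1.64-fold and 1.65-fold. Heyl, Dll4 and Notch2 would have needed 2.02-fold, 2.30-fold and 2.39-fold, so smaller estimates of these 3 could not have been called here. These are sizes of the estimate, and a true change of such a size can still be missed. The SD within groups, pooled, had a median of 0.255 over the 10 genes against 0.178 over all tests. Notch2, Dll4 and Heyl lay at the 95th, 94th and 89th percentile of that spread among all tests, and Jag1 at the 31st.

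Hypertensive replicate 1 gave the highest level of the 8 arrays for 5 of the 10 genes (Notch2, Notch4, Hey1, Hey2 and Heyl) and the lowest for Notch1 and Dll4. Hypertensive replicate 4 had summed white adipocyte markers of 40.4 against 5.13 to 12.1 in controls, and it was the lowest of its group for Notch2, Jag1, Hes1, Hey1 and Hey2 and the highest for Notch1 and Notch3. Without that array still none of the 10 was called. That array also had its group's highest sums for macrophage (212), mast cell (18.6), lymphocyte (5.29) and Schwann cell and nerve markers (8.68). The lymphocyte sum lay within the control range of 4.99 to 7.54. The largest adipocyte value, these sums and the Notch levels above come from the same rat. The part of fat or of those other cells in the Notch levels was not tested.

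The pathway outside the 10 genes was described with lists of its other ligands, receptor processing enzymes, nuclear partners, trafficking factors, HES relatives, reported targets and arterial or venous genes. Of 95 genes on those lists, 82 had a probe and 76 were tested, of which 2 were called higher and 1 lower. That is 3.95% against 4.53% of all tests, and the median change was 0.05 against 0.04. An unadjusted p under 0.05 was reached by 15 of the 76, near the 20.3% of all tests, so the counts of such genes given below by list are no result about the lists. The 3 were Dlk2 and Pofut1, which rose, and Mfap2, which fell.

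**Figure D3:**
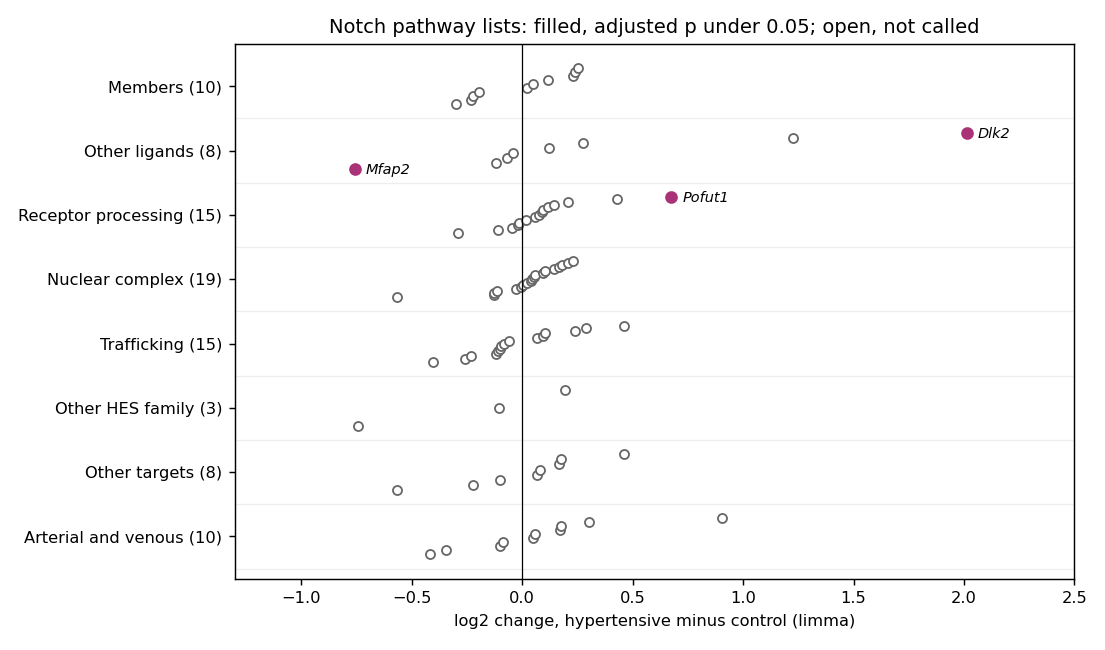
Log2 change (x axis, hypertensive minus control, limma) of every tested gene of each Notch list (y axis, with the number tested), filled where the adjusted p was under 0.05. The 10 members lie between -0.30 and 0.25, and Dlk2, Pofut1 and Mfap2 are the filled points.

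Dlk2 encodes a membrane protein of the Delta family that lacks the domain by which canonical ligands bind Notch and is described as an inhibitor of the receptors. It read -5.20, -5.10, -5.43 and -4.95 in controls and -3.29, -2.88, -3.43 and -3.02 in hypertensive rats. All 4 hypertensive rats lay above all 4 controls, of which replicates 2 and 3 were not well above background, so the control level is near the limit of the signal. Dlk2 thus passed the detection filter only through the hypertensive group, and the size of its change rests on control signals near background. The change was 2.01 ± 0.15 (limma adjusted p = 0.00013), and 0.70 with normexp background correction. The call held without any 1 array, but these fits reuse the same probe choice and near-background control values, so they give it no separate support. Its relative Dlk1, a soluble or membrane-bound regulator of adipocyte precursors, is named after its values were seen. It read -4.31, -3.20, -2.74 and -4.25 in controls and -2.47, -1.65, -2.76 and -2.71 in hypertensive rats, with a difference of 1.23 ± 0.39 (limma adjusted p = 0.121), or 0.66 with normexp, where it passed the threshold (adjusted p = 0.0402). The groups overlapped, because control replicate 3 lay above hypertensive replicate 3.

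Mfap2 encodes MAGP-1, a microfibril protein that can bind Jagged1. It read 1.07, 1.43, 1.18 and 0.95 in controls and 0.53, 0.31, -0.01 and 0.76 in hypertensive rats, with no overlap. The change of Mfap2 was -0.76 ± 0.17 (limma adjusted p = 0.044). The call was lost without control replicate 1, 2, 3 or 4 or hypertensive replicate 1, 2 or 3, where the change was -0.79, -0.67, -0.75, -0.83, -0.80, -0.73 and -0.62, and held without hypertensive replicate 4 (-0.88). It was also lost with the replicate block (limma adjusted p = 0.124) and without the detection filter (0.103). The remaining 5 ligands, Ccn3, Thbs2, Dll3, Mfap5 and Dll1, had estimates from -0.12 to 0.28 and were not called. Dll1 and Dll3, the other canonical ligands measured, were at -0.04 ± 0.15 and -0.12 ± 0.17.

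Pofut1 encodes the enzyme that adds O-fucose to the extracellular repeats of Notch, the sugar that Fringe enzymes then extend. It read -4.05, -3.74, -3.82 and -4.42 in controls and -3.36, -3.50, -3.25 and -3.21 in hypertensive rats, with no overlap. The change of Pofut1 was 0.68 ± 0.15 (1.60-fold; limma adjusted p = 0.042), and 0.35 with normexp. The call was lost without control replicate 1, 3 or 4 (0.66, 0.74 and 0.54) or any 1 hypertensive array (0.69, 0.73, 0.65 and 0.64 without replicates 1 to 4), and also under quantile normalization or median centring (0.59 under each), with the replicate block (limma adjusted p = 0.117) and without the detection filter (0.101).

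**Figure D4:**
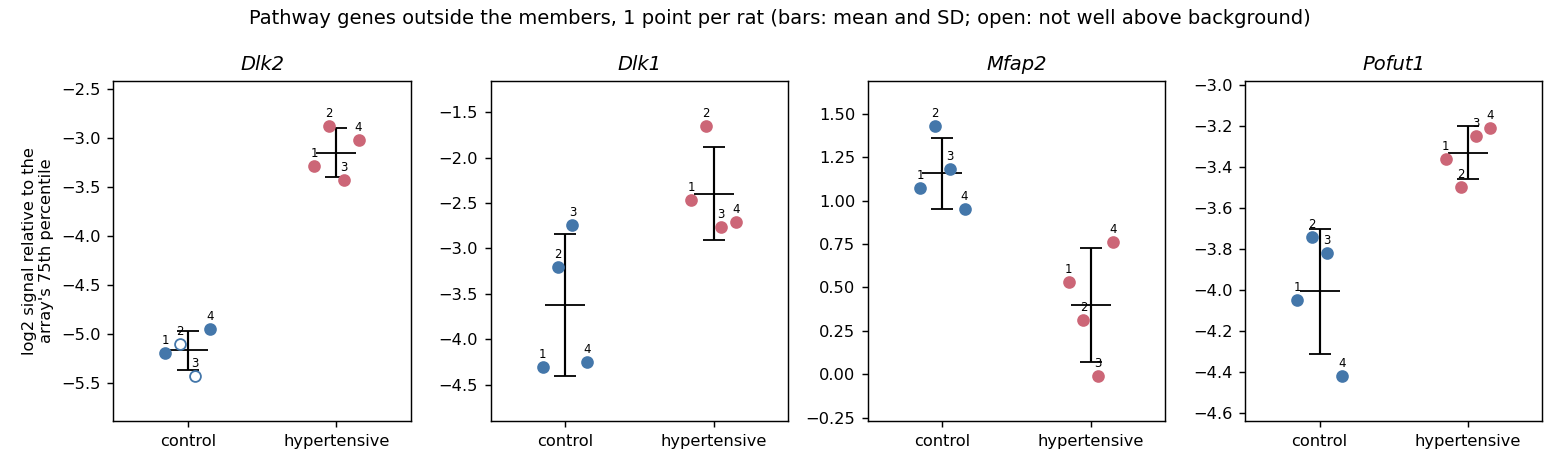
Level of Dlk2, Dlk1, Mfap2 and Pofut1 in every array (y axis, log2 signal relative to the array's 75th percentile; x axis, group), with 1 point per rat and the group mean ± SD; open points were not well above background. The groups do not overlap for Dlk2, Mfap2 and Pofut1 and overlap for Dlk1.

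None of the enzymes that cut the receptor was called. Of 15 receptor processing genes tested, Pofut1 rose and 14 were not called. Psen2 and Rfng, named after their values were seen, came nearest among them. Psen2, a catalytic subunit of gamma-secretase, read 2.74, 3.04, 3.11 and 2.81 in controls and 3.36, 3.45, 3.33 and 3.27 in hypertensive rats, with no overlap and a difference of 0.43 ± 0.10 (limma adjusted p = 0.053). Psen2 passed the threshold with normexp (limma adjusted p = 0.0237), quantile normalization (0.0466), detection on all 8 arrays (0.0485) and array weights (0.0384). Rfng, one of the 3 Fringe enzymes, differed by -0.29 ± 0.09 (limma adjusted p = 0.095), again with no overlap and an adjusted p of 0.048 with array weights, while Lfng and Mfng were at -0.11 ± 0.18 and -0.02 ± 0.20. The sheddase genes Adam10 and Adam17 were at 0.09 ± 0.17 and -0.01 ± 0.13. The secretase subunit genes Ncstn, Aph1a, Aph1b and Psenen lay between 0.02 and 0.12.

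Of 19 nuclear partners and corepressors tested, none was called and 1 had an unadjusted p under 0.05. Rbpj itself was at 0.04 ± 0.11 on its brighter probe and at -0.29 ± 0.13 on its second (limma adjusted p = 0.853 over all tests and 0.266 over all kept probes). The smallest p values were those of the coactivator gene Crebbp, at 0.23 ± 0.09 on one probe and -0.75 ± 0.27 on the other, and of the corepressor gene Tle4, at 0.21 ± 0.10 with its other 2 probes at -0.09 and -0.33. For both genes the probes thus disagreed in sign.

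Of 15 trafficking and turnover genes tested, none was called and 4 had an unadjusted p under 0.05, against 20.3% of all tests. Dtx3l, which encodes a ubiquitin ligase of the Deltex family, differed by 0.29 ± 0.10 (limma adjusted p = 0.148), while its second, dimmer probe differed by 0.98 ± 0.23 (adjusted p = 0.048 over all kept probes). Nrarp, a feedback inhibitor that is itself a Notch target, read -0.39, -0.07, -0.20 and -0.60 in controls and 0.38, 0.22, -0.36 and 0.33 in hypertensive rats. Hypertensive replicates 1, 2 and 4 lay above all controls and replicate 3 within their range, and the difference was 0.46 ± 0.18 (limma adjusted p = 0.201).

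Of 3 further HES relatives tested, none was called and 1 had an unadjusted p under 0.05. Bhlhe40, a repressor tied to the circadian clock and hypoxia, differed by -0.74 ± 0.25 (limma adjusted p = 0.137), and passed the threshold without hypertensive replicate 2 (-0.97). Hes2 was at -0.10 ± 0.10. Of 8 other reported vascular targets tested, none was called and 2 had an unadjusted p under 0.05, which were Nrarp again and Myc, a growth regulator (-0.57 ± 0.16, limma adjusted p = 0.085). Myc passed the threshold without hypertensive replicate 4 (-0.70). Efnb2, Pdgfrb, Acta2 and Myh11, which are reported to respond to Notch in arterial endothelium or smooth muscle, lay between 0.07 and 0.18.

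Of 10 arterial and venous genes tested, none was called and 2 had an unadjusted p under 0.05. Gja5, which encodes the arterial gap junction protein connexin 40, read -2.47, -1.99, -2.72 and -2.45 in controls and -0.98, -1.82, -2.23 and -0.98 in hypertensive rats. Hypertensive replicates 1, 2 and 4 lay above all controls, and the difference was 0.91 ± 0.29 (limma adjusted p = 0.128). With normexp the difference was 0.665 and passed the threshold (limma adjusted p = 0.0494). Sox18, an endothelial transcription factor gene, differed by -0.42 ± 0.14 (limma adjusted p = 0.127). It was called without hypertensive replicate 4 (-0.54) and with array weights (-0.45, limma adjusted p = 0.0484). Nr2f2, a venous factor that represses Notch, was at 0.17 ± 0.11 on its brighter probe. Its second probe was at 0.41 ± 0.19 (limma adjusted p = 0.271 over all kept probes). Of the 10 estimates on this list, 6 were above 0 and 4 below.

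Among markers of the cells that carry these genes, none of 10 endothelial, 10 smooth muscle or 6 pericyte genes was called, with unadjusted p under 0.05 for 3, 1 and 0 of them and median changes of 0.05, 0.10 and 0.02. Of 7 fibroblast, 7 white adipocyte, 8 mast cell, 6 lymphocyte and 6 Schwann cell and nerve markers tested, none was called, although 1, 0, 6, 3 and 2 had an unadjusted p under 0.05, against 20.3% of all tests. Their median changes were -0.21, 0.42, 0.72, -0.58 and 0.38. All 7 fibroblast and all 6 lymphocyte estimates were below 0. Above 0 were 6 of 7 white adipocyte, 7 of 8 mast cell and 5 of 6 Schwann cell and nerve estimates. The fibroblast gene Fbln1 was at -0.21 ± 0.11 on its brighter probe. Its second probe was at -0.75 ± 0.13 (limma adjusted p = 0.017 over all kept probes). Of 8 macrophage markers 1 was called lower (Mrc1) and 5 had an unadjusted p under 0.05, with a median change of -0.28. Their directions were mixed, with 6 estimates below 0 and 2 above. Lyz2, among the 5, was higher (0.53 ± 0.14, limma adjusted p = 0.080). Summed macrophage markers were 130 to 165 in controls and 151 to 212 in hypertensive rats. Of 6 skeletal muscle markers 1 was called higher (Myh1) and 1 lower (Mb), and 4 had an unadjusted p under 0.05, with a median change of 0.05. With 1 array left out the macrophage count ran from 0 to 4 (4 without hypertensive replicate 4) and the skeletal muscle count from 0 to 2. That of lymphocyte markers ran from 0 to 3 (3, all lower, without hypertensive replicate 4). Those of endothelial, pericyte and fibroblast markers ran from 0 to 1. For smooth muscle, white adipocyte, mast cell and Schwann cell and nerve markers the count stayed at 0. The call of Mrc1 was lost without each array other than hypertensive replicate 4. That of Myh1 was lost without any 1 control or hypertensive replicate 1, 3 or 4, and that of Mb without any 1 control or hypertensive replicate 1. Summed mast cell markers were 6.14 to 10.2 in controls and 9.94 to 18.6 in hypertensive rats. Summed lymphocyte markers were 4.99 to 7.54 and 3.05 to 5.29, in the same order. Summed Schwann cell and nerve markers were 4.22 to 6.14 and 6.28 to 8.68, and alone among the marker lists did not overlap between groups. Hypertensive replicate 4 set the upper end of the hypertensive range for the macrophage, mast cell, lymphocyte and Schwann cell and nerve sums. The part of these cells in the Notch values was not tested.

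The gene profiles most like that of Jag1, the member with the smallest p, were sought over all named genes with a kept probe. The measure was the root mean square difference over the 8 arrays after each gene's own mean was subtracted. The nearest were Cct8, a chaperonin subunit gene (0.0399), Vdac3, a mitochondrial channel gene (0.0501), and Abracl (0.0526). Their changes were 0.25, 0.22 and 0.21, and like Jag1 none was called. The group difference is part of the matched profile, so changes near that of Jag1 follow from the choice.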

How the data were processed

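The deposited intensity of each spot had its background subtracted in Agilent Feature Extraction, per the file headers (version 10.7.1.1; the submitters' processing notes give 12.1.1.1). Total RNA (100 ng) had been labelled with Cy3, per the labels' protocols. The deposited value table holds a linear ratio, equal on every array to the processed intensity over a constant, with 0 probes above 1 deviating by over 5%; medians per column ran from 0.086 to 0.101, it carries no gene centring or direction, and it served as an alternative. Marks for well above background (0 or 1 per spot) were used as deposited.

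Log2 intensity was averaged over a probe's spots, skipping outlier spots (213 to 396 of 58717 on an array) if the probe had others. A probe was kept if well above background on at least 3 of 4 arrays of a group (27822 of 45598). RefSeq accessions named 21229 probes (46.6%) through the GRCr8 gene table. Groups were compared with limma 3.58.1 in R 4.3.3 over 24552 tests, group as the only term, checked on simulated data. P-values measure spread between rats. The members, lists and named genes (members; from each other list those called, or else the 2 smallest p; the 3 profiles nearest Jag1) were chosen with earlier results of these data known. Normexp (offset 50) used median spot signals, since a mean signal column is not used here.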

Additional observations from a re-analysis of the deposited data

Results flagged for a closer look

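None of the 20 groups of 4 values of the 10 Notch genes held a rat set apart from the rest by Dixon's test at the 95% level. Of 88 groups tested over all named genes, 4 did, where chance gives about 1 in 20. Hes2 was lowest in hypertensive replicate 2 (-3.61, the next at -3.23), Mb in control replicate 2 (-0.89, the next at -0.78) and Vwf in hypertensive replicate 3 (5.82, the next at 6.46). Fabp4, an adipocyte gene, was highest in hypertensive replicate 4 (3.44, the next at 1.48).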

How the results depend on the processing

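Under each of 18 alternatives, 0 of the 10 Notch genes were called, and the smallest adjusted p was 0.129 (limma). Of 180 values, 168 kept the sign of the main result and 12 turned it, and 7 of the 10 genes never turned. Notch2 was -0.044 under quantile normalization and -0.037 under median centring, and -0.20 to 0.19 with 1 array left out. Notch3 was -0.0063, -0.065 and -0.031 with quantile normalization, median centring and array weights, and -0.033 to 0.13 with 1 array left out. Dll4 ran from -0.165 to 0.36 with 1 array left out. Among other named genes, Crebbp (-0.26) and Tle4 (-0.072) turned with the mean of kept probes and Hes2 (0.037) with normexp, an alternative chosen after seeing the data. The count over all tests was 1857 with normexp, 641 without the detection filter, 675 with the replicate block, and 629 to 1473 with 1 array left out. Quantile normalization split it into 529 higher and 586 lower and median centring into 422 and 652, against 641 and 470. Other ligands called were 1 without the filter, with detection on all 8 arrays (which drops Dlk2) or with the block, and 1 to 2 with 1 array left out. Receptor processing genes called were 2 with normexp or detection on all 8 arrays, 3 with array weights, 0 with median centring, without the filter or with the block, and 0 to 1 with 1 array left out. With the mean of kept probes 1 trafficking gene was called. With normexp or array weights 1 other target was called (Myc, lower). Of arterial or venous genes 1 was called under each, Gja5 higher with normexp and Sox18 lower with array weights. With 1 array left out, the count ran from 0 to 1 for other targets, for arterial or venous genes and for HES relatives. Correlations across genes between rats of the same replicate number were 0.206, 0.115, -0.0036 and -0.148 for numbers 1 to 4. Those between unlike numbers ran from -0.218 to 0.236. With 4 arrays per group, these values cannot settle whether the numbers pair rats. The replicate block called no Notch member. The number of arrays limits the precision. Normexp on mean signals was not run.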
